A study of Mus musculus with 4 samples.

Results

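The genes described here are 10 regulators and markers of the epithelial-mesenchymal transition (EMT), taken by name from the 53647 genes in the count tables: the transcription factor genes Snai1, Snai2, Twist1, Twist2, Zeb1, Zeb2 and Grhl2, the cadherin genes Cdh1 and Cdh2, and the intermediate filament gene Vim. Each name matched 1 Ensembl identifier. RNA was sequenced from 4T1 cells, a mouse mammary carcinoma line labelled wild type, in 4 libraries. The 2 Mock libraries came from cells given mRNA for the fluorescent protein EGFP, and the 2 uniSTING libraries from cells given mRNA for uniSTING, a protein built to act like STING, an adaptor of innate immune signalling. Both groups were therefore given an mRNA, and untreated cells were not analysed here. The labels name a commercial transfection reagent and SS-OP lipid nanoparticles as carriers without tying either to a library, and give neither dose nor time. They number the libraries of a group as preparations, called replicates 1 and 2 here, and do not say that these came from separate cultures, so that p-values rest on library-to-library spread alone, and that spread may be technical.

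In EMT, epithelial cells loosen their junctions and take on a migratory form. The SNAIL proteins (Snai1, Snai2) and the ZEB proteins (Zeb1, Zeb2) are zinc finger repressors that bind E-box sequences in the promoter of Cdh1, the gene for E-cadherin, and the TWIST proteins are basic helix-loop-helix factors that act in the same direction. GRHL2 maintains epithelial genes, Cdh1 among them, and it and ZEB1 repress each other. E-cadherin holds epithelial cells together, N-cadherin (Cdh2) often takes its place in mesenchymal cells, and vimentin is the main intermediate filament of mesenchymal cells. 4T1 cells are known as a metastatic line that keeps E-cadherin.

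Total counts ran from 17502694 to 25071840 per library. The variance between the libraries of a group was 1.47 (Mock) and 1.52 (uniSTING) times that of counting alone over genes with a mean of at least 50 counts, against 14.5 to 17.1 times between libraries of different groups. Over genes with a mean of at least 10000 counts, as Vim and Cdh1 have, it was 2.15 (Mock) and 1.91 (uniSTING) times. Between libraries of different groups it was then 262 to 354 times. The epithelial identity of the cells was checked with 7 markers (Epcam, Krt8, Krt18, Krt19, Cldn3, Cldn4, Cldn7), which were all detected and summed to between 3356 and 3741 CPM (counts scaled to library size, with edgeR's TMM factors). Markers of other cells were low. The 8 fibroblast markers summed to between 71.7 and 82.4 CPM, most of it Postn with a mean of 65.3 CPM. The fibroblast marker Col3a1 had 6 and 21 counts in the replicate 1 libraries of Mock and uniSTING and 0 in both replicate 2 libraries. The 7 leukocyte markers summed to between 7.42 and 13.1 CPM, most of it Cd68, with Itgam at 0 in all libraries. The 5 endothelial markers summed to 2.496 and 1.60 CPM in the replicate 1 libraries of Mock and uniSTING and to 0.226 and 0.321 CPM in the replicate 2 libraries. Pericyte and adipocyte markers stayed under 0.5 CPM in sum, with Adipoq at 0.

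In Mock, the cells expressed an epithelial cadherin and a mesenchymal filament together. Levels of different genes are compared only as CPM per kb of exon. Vim stood at 471 ± 2.13 CPM per kb (SD, n = 2 libraries), rank 82 among 21532 genes with a count, and Cdh1 at 137 ± 1.23, rank 343. Next came Twist1 at 12.6 ± 0.337, Snai1 at 9.26 ± 1.21 and Grhl2 at 7.23 ± 0.324 CPM per kb. Zeb2 followed at 2.03 ± 0.007496 and Zeb1 at 0.116 ± 0.0232 CPM per kb. No neighbours among these 7 had overlapping libraries in Mock, and their order was the same in uniSTING. The exon length behind the scale is that of all annotated exons merged, 20.2 kb for Zeb2 and 10.27 kb for Zeb1, so that a gene with many alternative exons reads low on it.

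**Figure D1:**
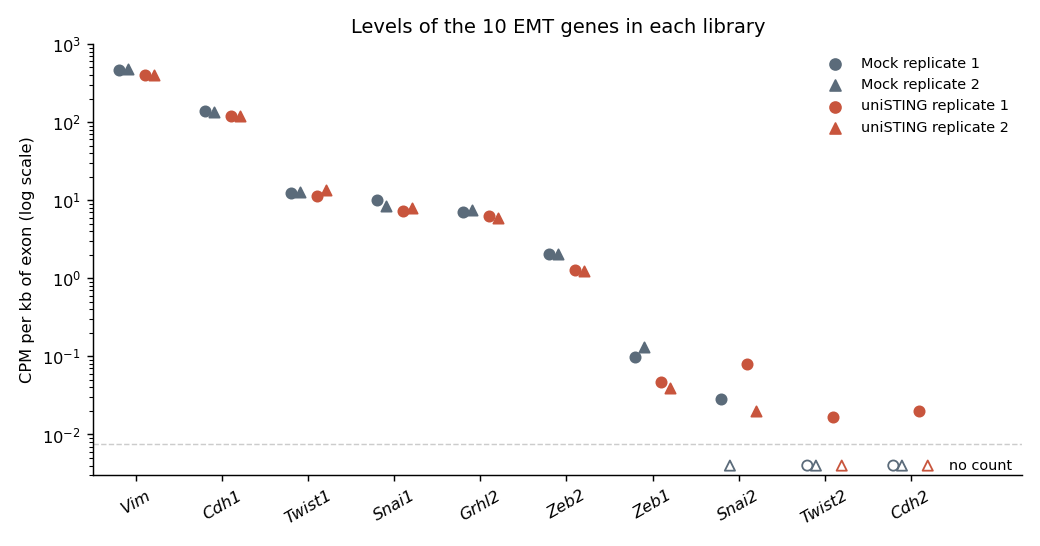
CPM per kb of exon (log axis) of the 10 EMT genes in each library, in order of the Mock mean, with circles for replicate 1, triangles for replicate 2, and open symbols under the dashed line for libraries without a count. Vim and Cdh1 lie far above the 7 transcription factor genes, and Snai2, Twist2 and Cdh2 have no count in at least 1 library.

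The other 3 genes were close to absent. Snai2, whose product SLUG is a second SNAIL repressor, was counted once in Mock replicate 1 and not in replicate 2, and had 3 and 1 counts in the uniSTING libraries, a uniSTING to Mock ratio of 3.64 with an exact 95% counting interval from 0.360 to 179. Cdh2 had no count in Mock and 3 and 0 in uniSTING, and Twist2 had no count in Mock and 1 and 0 in uniSTING. A count of 0 over the Mock libraries allows up to 0.0755 CPM and the same floor of 3 counts in uniSTING is 0.0688 CPM, so no fold is given for either gene. Of the 9 counts of these 3 genes, 8 fell in the replicate 1 libraries, which also held more endothelial marker counts and all counts of the fibroblast marker Col3a1. For Twist2, 46.5% of the exon length is shared with Gm29100 on the opposite strand, and reads there were given to neither gene. A difference between the groups was not detectable at this depth for any of the 3, and the intervals and floors cover counting error only.

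To show the regulatory sequence in front of the genes that were expressed, the 250 bases before an annotated start are printed for the 4 of them that have an entry in RefSeq's promoter table (GRCm38.p6). Twist2 also has an entry, and the other 5 genes are named only. Capitals mark 3 kinds of match on either strand: the E-box CAGGTG (or CACCTG) that SNAIL and ZEB proteins bind, the TATA box TATAAA, and the AP-1 site TGANTCA. Each sequence runs 5′ to 3′ on the strand of its gene.
Snai1, chr2:167537945-167538194, plus strand: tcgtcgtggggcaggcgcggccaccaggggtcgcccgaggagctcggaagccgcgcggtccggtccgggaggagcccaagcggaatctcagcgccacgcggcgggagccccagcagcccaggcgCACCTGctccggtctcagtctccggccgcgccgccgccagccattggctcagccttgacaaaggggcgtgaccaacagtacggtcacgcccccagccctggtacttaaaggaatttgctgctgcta
Twist1, chr12:33957421-33957670, plus strand: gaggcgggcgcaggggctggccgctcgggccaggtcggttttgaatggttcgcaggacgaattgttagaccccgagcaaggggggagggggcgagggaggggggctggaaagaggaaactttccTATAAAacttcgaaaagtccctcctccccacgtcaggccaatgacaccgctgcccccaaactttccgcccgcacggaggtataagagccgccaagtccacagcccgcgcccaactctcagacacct
Zeb2, chr2:45110278-45110527, minus strand: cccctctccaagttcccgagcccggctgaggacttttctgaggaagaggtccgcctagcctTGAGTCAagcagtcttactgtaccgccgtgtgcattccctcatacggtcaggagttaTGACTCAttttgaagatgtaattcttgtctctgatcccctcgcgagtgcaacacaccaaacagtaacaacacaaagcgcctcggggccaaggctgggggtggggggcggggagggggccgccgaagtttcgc
Vim, chr2:13574061-13574310, plus strand: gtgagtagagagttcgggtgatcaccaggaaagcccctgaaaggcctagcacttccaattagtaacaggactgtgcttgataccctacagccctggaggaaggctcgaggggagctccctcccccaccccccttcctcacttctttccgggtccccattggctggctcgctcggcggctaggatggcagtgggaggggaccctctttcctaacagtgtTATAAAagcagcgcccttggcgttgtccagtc

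The Snai1 window holds 1 CACCTG, from 126 to 121 bases before the start, and SNAIL1 is known to act on its own promoter. The letters CAGGTG or CACCTG occur in 17.2% of 32817 windows of this length. Vim has TATAAA from 32 to 27 bases before its start, the usual place of a TATA box, and Twist1 has it from 126 to 121 bases before, against 12.4% of all windows with the letters on either strand. Of 4 annotated Zeb2 starts, the one shown was picked because its window holds 2 AP-1 matches, which 6.75% of windows have at least once. The core of the interferon-stimulated response element (GAAA, any 2 bases, GAAA, in 2.97% of windows), the NF-kB letters (GGGA, any 2 bases, TTCC, 1.21%) and the grainyhead letters AACNNGTT (3.64%), each searched on both strands, are not in the windows of these 4 genes. A match is a description of letters and not of binding, and a missing one says only that the letters are not in that window.

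Between uniSTING and Mock, 6 of the 7 tested genes fell and none rose, epithelial and mesenchymal ones alike. Zeb1 and Zeb2 fell most, to 0.369 and 0.615 of Mock. Snai1, Grhl2, Vim and Cdh1 fell to between 0.825 and 0.870 of Mock, and Twist1 did not pass the test. This order was not kept when the trend of each library with exon length was removed. Snai1 then fell more than Zeb2 (log2 fold change -0.47 against -0.31). Calls were made at an adjusted p of 0.05 with edgeR's quasi-likelihood test and Benjamini-Hochberg adjustment, and 50.2% of all 12972 tested genes were called, 25.4% lower and 24.9% higher in uniSTING. The libraries of uniSTING lay below those of Mock for the same 6 genes, which was so for 37.3% of all tested genes (75.1% had groups apart in either direction). The median log2 fold change was -0.26 over the 7 genes and 0.006 over all tested genes. The 7 are those that passed the filter on low counts and not all 10, and Zeb1 passed it through the Mock libraries only, so that it had to be lower in uniSTING. Of the other 6 tested genes 5 fell. In bulk RNA, fewer cells that express a gene and less of its RNA per cell cannot be told apart.

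**Figure D2:**
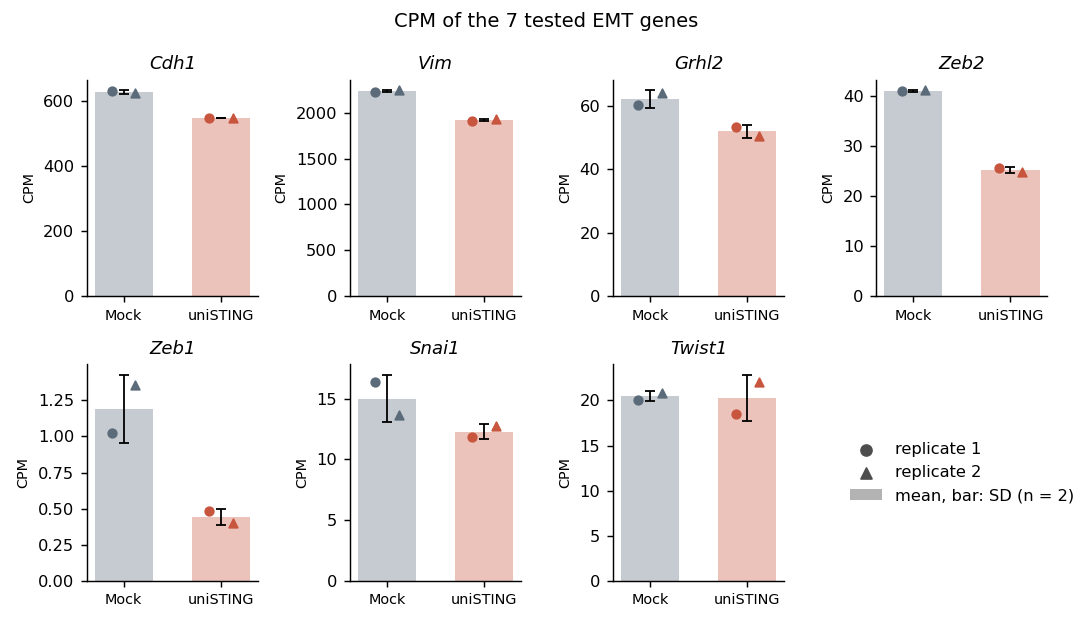
CPM of each of the 7 tested EMT genes, as points per library (circle, replicate 1, and triangle, replicate 2), bars for the group mean and lines for the SD of 2 libraries, each panel on its own axis from 0. The uniSTING points lie below the Mock points in every panel except that of Twist1.

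Cdh1 (ENSMUSG00000000303, chromosome 8, 107329983 to 107396878 on the plus strand, GRCm39, 16 merged exons) had 11113 and 13758 counts in Mock, or 631 and 623 CPM, and 10210 and 13576 counts in uniSTING, both 545 CPM. The uniSTING libraries were thus equal to the third digit and below both Mock libraries. Its log2 fold change was -0.20 (SE 0.02, 95% interval -0.24 to -0.16, adjusted p = 2.79e-06), to 0.870 of the Mock level. E-cadherin RNA stayed abundant in both groups.

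Vim (ENSMUSG00000026728, chromosome 2, 13578738 to 13587637 on the plus strand, 7 merged exons) had 2229 and 2243 CPM in Mock and 1911 and 1929 CPM in uniSTING, from at least 35797 counts in each library. It is the gene of the 10 with the most counts and the narrowest interval. The log2 fold change was -0.22 (SE 0.01, 95% interval -0.25 to -0.19, adjusted p = 8.80e-08), to 0.858 of the Mock level.

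Vim and Cdh1 kept their proportion. Within a library, where no scaling enters, the ratio of Vim to Cdh1 per kb was 3.41 and 3.48 in Mock and 3.38 and 3.41 in uniSTING. These ranges overlap, and the mean log2 ratio differed by -0.02. With 2 libraries against 2, an exact permutation test cannot give a two-sided p under 0.333, so ratios are given as values.

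Zeb2 was the clearer of the ZEB genes, since Zeb1 was scarce. Zeb2 (ENSMUSG00000026872, chromosome 2, 44873644 to 45007407 on the minus strand, 19 merged exons) had 722 and 910 counts in Mock, or 41.0 and 41.2 CPM, and 481 and 619 in uniSTING, or 25.7 and 24.9 CPM. The groups were far apart beside the spread within them. Its log2 fold change was -0.70 (SE 0.06, 95% interval -0.85 to -0.56, adjusted p = 5.93e-06). With the trend of each library with exon length removed, the fall was 0.31 on the log2 scale and still passed (adjusted p = 0.00277). The antisense gene Zeb2os shares 3.23% of the exon length and had at most 6 counts.

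Zeb1 (ENSMUSG00000024238, chromosome 18, 5591860 to 5775467 on the plus strand, 16 merged exons) had 18 and 30 counts in Mock, or 1.02 and 1.36 CPM, and 9 and 10 in uniSTING, or 0.480 and 0.402 CPM. Every uniSTING library was below every Mock library, at a level near the limit of what these libraries count. Because Zeb1 passed the filter through the Mock libraries only, this separation was set by the filter and adds no support for a fall. The log2 fold change was -1.44 (SE 0.43, 95% interval -2.39 to -0.49, adjusted p = 0.0170), and the Mock to uniSTING ratio of the summed counts, 48 and 19, was 2.77 with an exact 95% interval from 1.60 to 5.00. DESeq2 did not call it (adjusted p = 0.0922), nor did edgeR when Mock replicate 2 (adjusted p = 0.185) or uniSTING replicate 2 (adjusted p = 0.102) was left out. Zeb2 was the prevailing family member throughout, at 20.4 and 15.4 times Zeb1 per kb in Mock and 27.2 and 31.5 times in uniSTING.

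Snai1 (ENSMUSG00000042821, chromosome 2, 167380115 to 167384734 on the plus strand, 3 merged exons) had 289 and 301 counts in Mock, or 16.4 and 13.6 CPM, and 222 and 317 in uniSTING, or 11.8 and 12.7 CPM. The Mock libraries differed from each other by more than Mock replicate 2 differed from uniSTING replicate 2. The log2 fold change was -0.28 (SE 0.10, 95% interval -0.51 to -0.05), and it only just passed (adjusted p = 0.0438). The same-numbered libraries gave -0.47 for number 1 and -0.10 for number 2. The call was lost with DESeq2 (adjusted p = 0.138), with limma-voom (adjusted p = 0.0682), with the replicate number as a block (adjusted p = 0.0517), and when Mock replicate 1 (log2 fold change -0.15, adjusted p = 0.262) or uniSTING replicate 1 (adjusted p = 0.136) was left out, while with the length trend removed the fall was 0.47 (adjusted p = 0.00445).

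Twist1 (ENSMUSG00000035799, chromosome 12, 34007670 to 34009828 on the plus strand, 2 merged exons) was the most abundant per kb of the 7 transcription factor genes and the one tested gene of the set that did not pass. It had 354 and 461 counts in Mock, or 20.1 and 20.9 CPM, and 346 and 550 in uniSTING, or 18.5 and 22.1 CPM. The uniSTING libraries lay on both sides of the Mock libraries. Its log2 fold change was -0.01 (SE 0.09, adjusted p = 0.956), with a 95% interval from -0.21 to 0.19 that holds changes of the size seen for Cdh1. The ratio of Twist1 to Snai1 per kb was 1.22 and 1.52 in Mock and 1.55 and 1.73 in uniSTING, so the groups did not overlap, though Mock replicate 2 and uniSTING replicate 1 were close.

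Grhl2 (ENSMUSG00000022286, chromosome 15, 37233280 to 37363813 on the plus strand, 17 merged exons) had 1063 and 1420 counts in Mock, or 60.3 and 64.3 CPM, and 1002 and 1260 in uniSTING, or 53.5 and 50.6 CPM. The groups did not overlap. The log2 fold change was -0.26 (SE 0.05, 95% interval -0.38 to -0.14, adjusted p = 0.00202). With the length trend removed it was -0.12 and did not pass (adjusted p = 0.0996). The antisense gene Gm16136 shares 169 bases of exon with it. Gm16136 itself was counted 31 and 26 times in Mock, against 43 and 64 times in uniSTING. Grhl2 per kb was 3.45 and 3.66 times Zeb2 in Mock and 4.89 and 4.77 times in uniSTING. These genes differ in length, and with the length trend removed their log2 fold changes were closer, at -0.12 for Grhl2 and -0.31 for Zeb2. Against Cdh1 it did not separate the groups, with a Cdh1 to Grhl2 ratio of 19.7 and 18.2 in Mock and 19.2 and 20.3 in uniSTING.

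**Figure D3:**
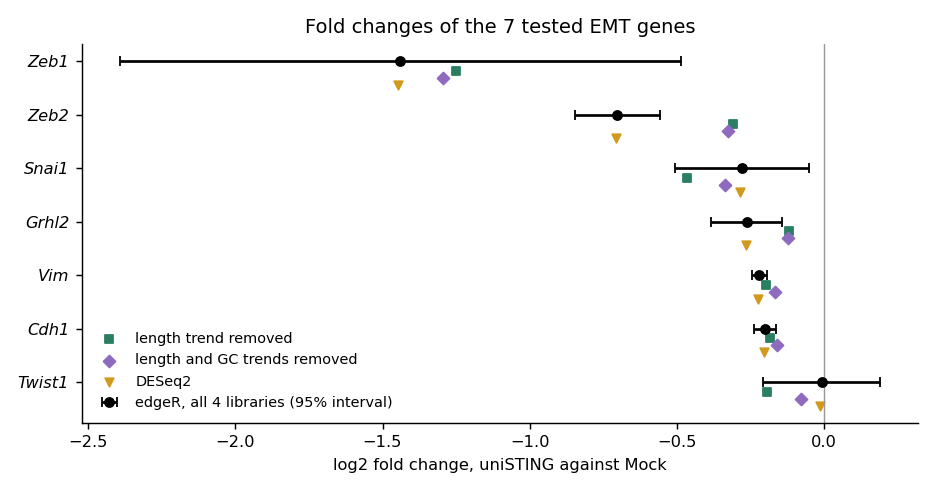
Log2 fold change of uniSTING against Mock for the 7 tested EMT genes, with black points and lines for edgeR on all 4 libraries and its 95% interval, and coloured symbols for 3 other settings. The Zeb2 value moves from -0.70 to -0.31 with the length trend removed, Grhl2 from -0.26 to -0.12, and Cdh1 and Vim move little.

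Fold changes followed gene length in these libraries, which bears on the ZEB and Grhl2 values. Spearman's rho between exon length and log2 fold change was -0.36 over the 12972 tested genes. It describes genes of the same 4 libraries, not independent replicates. Zeb2, Zeb1 and Grhl2 have the longest exon sums among the 7, at 20.2, 10.27 and 8.61 kb, while Snai1 and Twist1 have 1.62 and 1.63 kb. Removing the trend left 5 of the 7 genes lower, with 22.2% of all tested genes then lower. What made the trend was not tested.

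**Figure D4:**
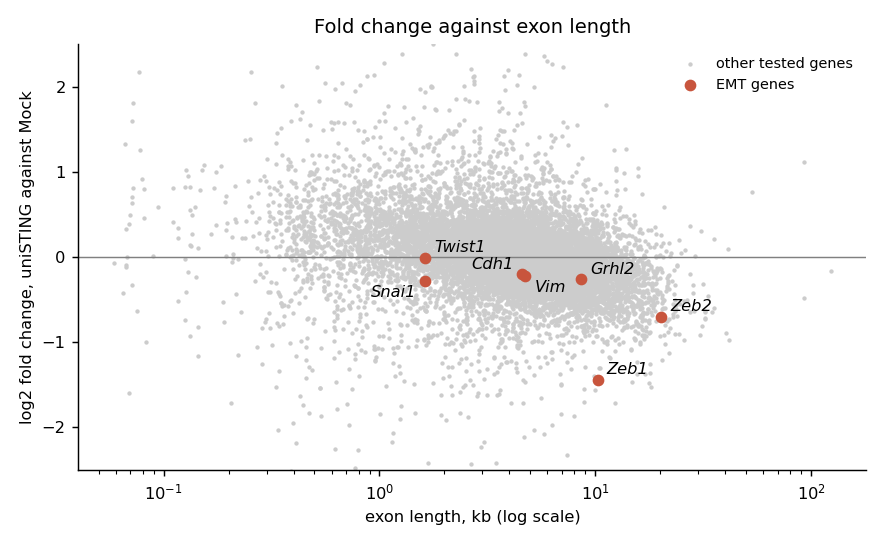
Log2 fold change of uniSTING against Mock and exon length (log axis) of all tested genes in grey, 48 of which lie beyond the axis, with the 7 tested EMT genes in red. Zeb2 and Zeb1 lie low at the long end, where most genes are below 0, and Twist1 lies at 0 at the short end.

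Genes of the catenin complex were mostly lower too, beside 25.4% lower and 24.9% higher of all tested genes. Among the other cadherin genes, Cdh4, Cdh5, Cdh6 and Cdh13 were not tested, Cdh3 did not pass, and Cdh24 and Cdh11 fell. Of 14 other cadherin and catenin complex genes 9 were tested, of which 7 fell, 1 (Ctnnal1, log2 fold change 0.29) rose and 1 (Cdh3) did not pass, with a median log2 fold change of -0.33 (-0.22 with the length trend removed). Ctnnb1, which encodes beta-catenin and is the most abundant of them per kb, fell from 741 ± 5.06 to 621 ± 6.93 CPM (log2 fold change -0.26). Ctnnd1, which encodes p120 catenin that stabilises cadherins at the membrane, fell by 0.33 on the log2 scale (SE 0.07). Vcl, the vinculin gene, fell by 0.40 (SE 0.03), and Cdh24 by 0.39 (SE 0.08). The mesenchymal cadherin Cdh11 passed the filter through the Mock libraries only, as Zeb1 did, so it is counted here and among the mesenchymal genes below but had to be lower in uniSTING. It was scarce, at 12 and 18 counts in the Mock libraries against 5 and 6 in those of uniSTING, and fell by 1.55 (SE 0.54, adjusted p = 0.0333), which no fit on 3 of the 4 libraries called (adjusted p from 0.0977 to 0.228), nor the fit with the length trend removed (adjusted p = 0.0540).

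Genes of the epithelial state went mostly the other way from Cdh1. Of 20, all tested, 12 rose and 3 fell (Tjp1, Dsp and Lad1), against 24.9% higher and 25.4% lower of all tested genes. The other 5 did not pass, and the median of the 20 was 0.14. The list includes the 7 markers used above to check the identity of the cells. Krt19, a simple epithelial keratin, rose to 132 ± 3.56 CPM in uniSTING over 66.0 ± 1.46 CPM in Mock (log2 fold change 1.00, SE 0.03). The polarity gene Crb3 rose by 0.58 on the log2 scale, and the tight junction gene Tjp3 rose 1.85-fold from 2.22 ± 0.638 CPM, though not past the threshold when Mock replicate 2 was left out (log2 fold change 0.60, adjusted p = 0.0791). Tjp1, which encodes the junction scaffold ZO-1, had 216 ± 2.47 CPM in Mock and 137 ± 3.20 CPM in uniSTING (log2 fold change -0.66, SE 0.03). Krt18, the most abundant of the 20 per kb, did not pass, at 1225 ± 10.6 and 1244 ± 15.1 CPM, and was lower with the length trend removed (log2 fold change -0.18, adjusted p = 7.89e-06) and higher when uniSTING replicate 1 was left out (0.04, adjusted p = 0.0473). With the length trend removed, the list had 8 genes higher and 5 lower, with a median of 0.07. Krt8, singled out after its values were seen, rose by 0.05 but was lower in that setting (log2 fold change -0.10, adjusted p = 0.000194). Epcam, Cldn7, Spint1 and Prss8, singled out likewise, lost their calls there, while St14 gained one.

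Genes of the mesenchymal state were lower more often than higher, beside 25.4% lower and 24.9% higher of all tested genes. Of 20, 14 were tested, of which 9 fell, 1 rose and 4 did not pass, with a median of -0.26, or -0.22 with the length trend removed. Fn1, the fibronectin gene, had 1892 ± 2.63 CPM in Mock and 835 ± 13.2 CPM in uniSTING (log2 fold change -1.18). The matrix gene Tnc fell 1.57-fold. Lgals1, the galectin 1 gene and the most abundant of them per kb, rose 1.19-fold, a call lost with the length trend removed (log2 fold change 0.00, adjusted p = 0.797).

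Other regulators of these states were mixed. Of 11 that maintain the epithelial state 9 were tested, with 2 that rose, 3 that fell and 4 that did not pass (median -0.05), shares near those of all tested genes (24.9% higher, 25.4% lower). Ovol1, a repressor of mesenchymal genes, had 3.83 ± 0.0403 CPM in Mock and 6.64 ± 0.0355 CPM in uniSTING (log2 fold change 0.79, SE 0.14), and Grhl3, a paralogue of Grhl2, rose 1.81-fold from 2.03 ± 0.822 CPM (adjusted p = 0.0294). Grhl3 did not pass with DESeq2 (adjusted p = 0.0601), with the length trend removed (0.0511), or when Mock replicate 2 (0.224) or uniSTING replicate 1 (0.0890) was left out. Klf5 fell 1.23-fold. The epithelial splicing factor genes Esrp1, named after its values were seen, and Esrp2 fell by 0.18 and 0.19 on the log2 scale. Esrp2 passed narrowly (adjusted p = 0.0439) and lost its call in 8 of 12 other settings, among them each fit on 3 libraries (adjusted p from 0.0506 to 0.188). Of 16 linked to the mesenchymal state 12 were tested, with 6 that fell, 1 that rose and 5 that did not pass (median -0.17). Runx2 fell 1.39-fold, Tcf3, an E-box factor that represses Cdh1, 1.33-fold, and Sox4 1.15-fold, while Sox9 rose 1.24-fold. Tcf4, singled out after its values were seen, fell by 0.19 on the log2 scale but rose by 0.29 with the length trend removed.

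Proteins that work with the SNAIL, TWIST and ZEB repressors, or control their breakdown, were covered by 19 genes, all tested. Of these 12 fell and 2 rose (Hdac1 and Fbxl5), against 25.4% lower and 24.9% higher of all tested genes. The other 5 did not pass, and the median of the 19 was -0.22, or -0.16 with the length trend removed. Lats2, a kinase that stabilises SNAIL1, fell by 0.57 (SE 0.08), and Usp27x, which removes ubiquitin from it, by 0.45 (SE 0.12, with an adjusted p of 0.0506 when Mock replicate 1 was left out). Gsk3b, the kinase that marks SNAIL1 for breakdown, fell by 0.35 (SE 0.05), and the corepressor gene Rcor1 by 0.42 (SE 0.04). Ctbp1, the ZEB corepressor and the most abundant of them per kb, fell 1.05-fold (adjusted p = 0.0243). Ctbp1 did not pass with DESeq2 (adjusted p = 0.0875), with no filter on low counts (0.0502), with the length trend removed (0.0583), or when Mock replicate 1 (0.0938) or uniSTING replicate 1 (0.107) was left out. With length and GC trends removed its sign turned (log2 fold change 0.01, adjusted p = 0.717). Genes of opposite effect on SNAIL1 thus fell side by side.

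**Figure D5:**
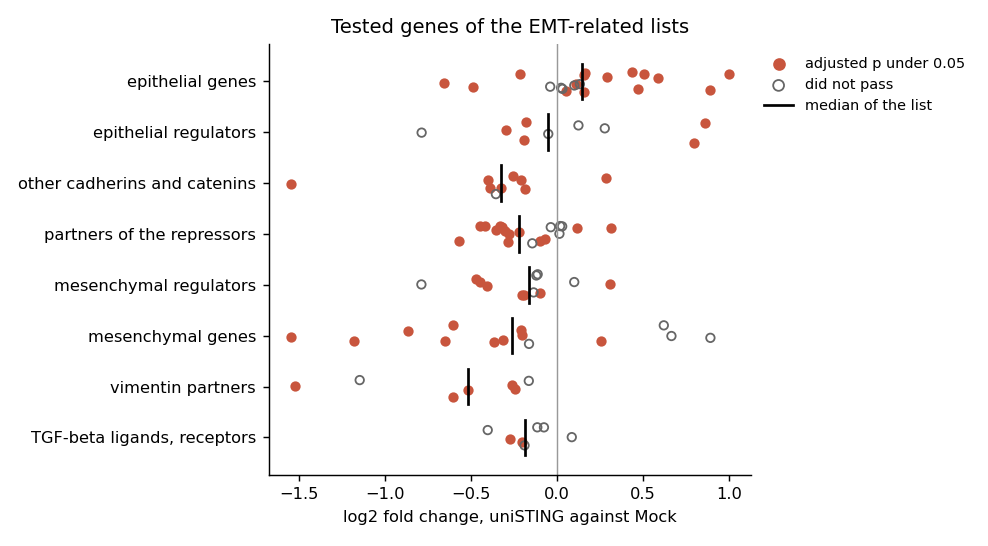
Log2 fold change of uniSTING against Mock for each tested gene of 8 EMT-related lists, filled where the adjusted p was under 0.05 and open where it was not, with a black bar for the median of each list. The median lies at 0.14 for the epithelial genes and at -0.26 for the mesenchymal genes, and each list but those of vimentin partners and TGF-beta genes holds genes called in both directions.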

How the data were processed

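Genes were counted in 2 Mock and 2 uniSTING libraries of 4T1 cells, grouped by the sample titles. The authors deposited unnormalized gene counts. Per the file headers they ran featureCounts 2.0.1 for paired reads and set no strand, with exons as features, Ensembl 103 gene models and the GRCm39 genome. HISAT2 is named as aligner in the submitters' processing notes, with no version found. The headers name the alignments of each group by a shared code and a running number, which the sources do not explain. Reads over exons of 2 genes were assigned to neither, and antisense reads cannot be told apart. An identifier table gave symbols to 52093 of 53647 genes.

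Counts were tested with edgeR 4.0.16 (R 4.3.3): TMM, filterByExpr (minimum count 10, minimum total 15), glmQLFit and glmQLFTest on the group over 12972 genes, Benjamini-Hochberg adjustment, threshold 0.05. Standard errors were derived from the F statistic and are approximate. CPM and CPM per kb were computed from the counts. The test was checked on simulated counts without a length trend, in which far fewer genes changed than were called in the real libraries. The shares of false calls may therefore differ from those in the real libraries. Where the simulated spread followed the fitted trend, the share of false calls stayed under the threshold. Where each gene kept its own estimated spread, the share exceeded it, so calls with an adjusted p just under the threshold are less secure than it states. The check was required to pass only in the former case, a choice made after the latter had failed. Members and lists were chosen with earlier results of these data known. The rule names all 10 members and, from each list, up to 4 called genes with the largest fold change and the gene highest per kb in Mock, and some genes it names are not reported here. Alternatives were DESeq2 size factors, 2 other filters, DESeq2 1.42.0, limma-voom (limma 3.58.1), a replicate block, leaving out each library, and removal of each library's lowess trend (span 0.3) with exon length. Removal of length and GC trends was added after seeing the data, with GC known for 99.9% of tested genes. Promoter windows came from RefSeq (GRCm38.p6), a build other than that of the counts.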

Additional observations from a re-analysis of the deposited data

How the results depend on the processing

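Zeb2, Cdh1 and Vim kept their direction and their call in all 12 alternative settings, with log2 fold changes from -0.72 to -0.31, from -0.21 to -0.16 and from -0.23 to -0.17. Between 4 and 6 of the EMT genes fell and none rose in each of them. Snai1 lost its call with DESeq2 (-0.29), limma-voom (-0.26) and the replicate block (-0.27, adjusted p = 0.0517), and over the fits without 1 library it ran from -0.42 to -0.15. Zeb1 lost its call with DESeq2 (-1.45) and ran from -1.63 to -1.21 without 1 library. Grhl2 lost it with the length trend removed (-0.12) and with length and GC trends removed (-0.12). Twist1 passed in no setting, with values from -0.19 to 0.11. Of the epithelial regulators, 3 in place of 5 passed with DESeq2, with the length trend removed and without Mock replicate 2, and counts ran from 3 to 4 over the fits without 1 library. Among 35 other named genes, 26 kept call and direction throughout. Krt18 turned to -0.18 with the length trend removed and to -0.12 with length and GC trends removed, and Ctbp1 to 0.012 with length and GC trends removed. The cause of these shifts was not tested. Same-numbered libraries deviated together (Pearson r of 0.63 over all tested genes), but with 2 numbers this does not show a pairing. The replicate block raised the calls over all genes from 6515 to 6777 and changed no call among the EMT genes except that of Snai1. Depth limits Zeb1, Snai2, Twist2 and Cdh2, which had at most 30 counts in a library.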

Other observations

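A list of vimentin partners, with other filament genes, linkers and kinases, was mostly lower, beside 25.4% lower and 24.9% higher of all tested genes. Of 10, 7 were tested, of which 5 fell, none rose and 2 did not pass, with a median log2 fold change of -0.52, or -0.48 with the length trend removed. The filament genes Des, Gfap and Prph were not tested, and Synm did not pass. Intermediate filament genes did not fall as a group. Of the keratin genes, which are outside this list, Krt19 and Krt8 rose (log2 fold changes 1.00 and 0.05) and Krt18 did not pass. Plec, which encodes the linker plectin, had 291 ± 1.24 CPM in Mock and 102 ± 3.97 CPM in uniSTING (log2 fold change -1.52, SE 0.03). Nes, the nestin gene, had 151 ± 0.0334 CPM in Mock and 99.7 ± 4.00 CPM in uniSTING. It is counted both here and among the mesenchymal genes above. Stk10 fell 1.43-fold. The nuclear lamin genes Lmna and Lmnb1 fell 1.18-fold and 1.20-fold.

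Of 9 genes for TGF-beta family ligands and their receptors, known inducers of EMT, 7 were tested, of which 2 fell, none rose and 5 did not pass (median -0.19), a share of lower genes near the 25.4% of all tested genes. The receptor genes Tgfbr2 and Tgfbr1 fell 1.21-fold and 1.15-fold, and the adjusted p of Tgfbr1 was 0.0501 with the length trend removed. In that setting Inhba, singled out after its values were seen, rose by 0.16 on the log2 scale (adjusted p = 0.00524).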
